A study of Mus musculus with 7 samples.

Results

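Vesicle traffic and endosome sorting genes were described in fetal liver red cell development, together with the sites near them that were bound by EKLF, a transcription factor of red cells encoded by Klf1. The genes were those of the deposited exon table whose mouse symbol begins with Rab, Sec or Arf and a digit, with Vps, Snx, Stx, Vamp, Ap1, Ap2, Ap3 or Trappc, or with Cop and a, b, e, g or z. By this rule on names alone, 112 of the 5194 genes of the table were members. A few are not traffic genes, such as Vps72, which encodes a subunit of chromatin remodelling complexes, and Rab5if, a membrane protein of the endoplasmic reticulum (ER).

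The cells came from the liver of E13.5 mouse embryos in which Klf1 is fused to a hemagglutinin (HA) tag. Every group carried this tagged allele, no group was treated, and the age is the same throughout. Erythroblasts were sorted as Ter119+CD71+ cells, and erythroid progenitors as Ter119-CD71- and Ter119-CD71+ cells that were combined. Ter119 marks red cells as they mature, and CD71 is the receptor for the iron carrier transferrin. EKLF sites were mapped with an antibody against HA by chromatin immunoprecipitation sequencing (ChIP-seq), with input chromatin as background, and RNA was sequenced from 2 erythroblast libraries and 1 progenitor library. The deposited values hold 1 RNA column and 1 pooled peak list for each stage, so differences between stages stand without replicates and without a test. The labels do not say whether the erythroblast column combines both libraries.

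RNA values are the authors' coverage signal summed over the listed coding exons of 1 transcript per gene. The signal was not divided by exon length, so it is compared for the same gene between stages and not between genes. An exon is listed only where both columns reach 0.8, and this lowest value stands for 1721 steps of the signal in erythroblasts and 1468 in progenitors. Genes without coverage in one of the stages are thus not analysed here. Differences are log2((erythroblasts + 1) / (progenitors + 1)), and a gene is said to have risen or fallen where this passed 2-fold. The spread given is the SD of log2 ratios over the exons of a gene, which are not replicates, and exon ratios carry no pseudocount. In such bulk samples, fewer cells of a type and less RNA per cell cannot be told apart. As checks of the sort, Tfrc, which encodes CD71, had 148 in erythroblasts and 21.3 in progenitors, and Klf1 had 145 and 73.9 in the same order. Of 27 markers of hepatocytes, macrophages, megakaryocytes, granulocytes, mast cells, endothelium and stroma, 1 was in the table, the platelet receptor gene Gp1ba (31.6 in erythroblasts, 9.35 in progenitors). Its part in the results was not tested.

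Vesicles move proteins between the ER, the Golgi, endosomes, lysosomes and the cell surface. Coats such as COPII, COPI and the clathrin adaptors gather the cargo, Rab and Arf GTPases mark the membranes, tethers catch the vesicle and SNAREs fuse it. In red cell precursors this traffic is best known for the transferrin cycle, in which the iron carrier is taken up by clathrin-coated pits, emptied of iron in endosomes, and sent back to the surface with its receptor. Maturing red cells later lose their ER, Golgi and endosomes.

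More members rose than fell. Of 112 members 19 rose (17.0%, against 15.3% of all genes), 5 fell (4.46%, against 13.2%) and 88 did neither. The median log2 difference was 0.23 over the members and 0.03 over all genes. Coverage was higher in erythroblasts than in progenitors, by any amount, in 67.9% of members and in 51.2% of all genes, and in 63.5% of the members' 513 listed exons, against 53.4% of all listed exons counted. The share of members that rose was thus near the background and the share that fell below it. These are descriptions of 1 column per stage, with no test. With a pseudocount of 5 the rises numbered 11 (9.82%, against 9.86% of all genes), and with the median of exon ratios, without a pseudocount, in place of summed exons they numbered 30 (26.8%, against 19.2%).

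**Figure D1:**
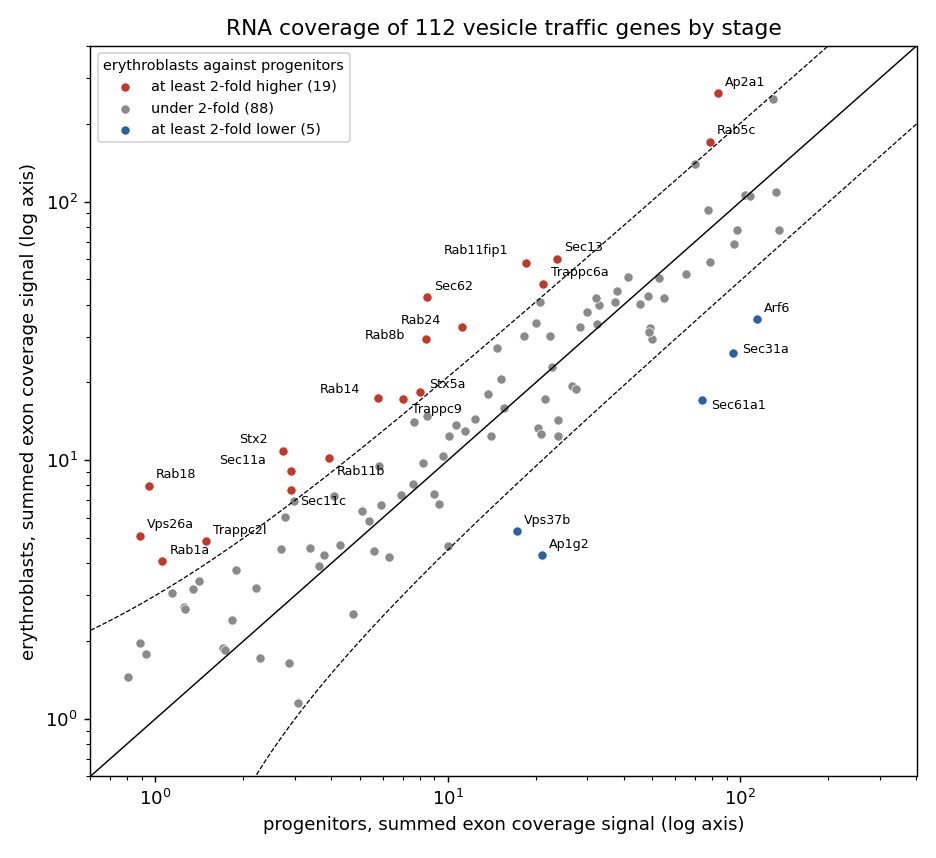
Summed exon coverage of the 112 genes in erythroblasts (vertical, log axis) and progenitors (horizontal, log axis), 1 point per gene, with equality as a solid line and the 2-fold rule as dashed lines that bend at low values because of the pseudocount. The 19 genes that rose are in red, the 5 that fell in blue, and the named rises spread from low coverage (Rab18, Vps26a) to high coverage (Ap2a1, Rab5c).

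The number of listed exons behind each call differed between genes. Of the 19 rises 13 rested on 2 or more listed exons, and in all 13 every listed exon was higher in erythroblasts. The other 6 (Rab11b, Rab18, Rab1a, Sec62, Trappc2l and Vps26a) rested on 1 listed exon. Of the 5 falls only Arf6 rested on 1 exon, and in the remaining 4 every listed exon was lower in erythroblasts. A call is made on the sum of these same exons, so their agreement is partly built into it and is not separate support. The matching share over all genes that rose or fell was not counted. Over all members 29 had 1 listed exon, and 43 had exons that went both ways. Several members have close paralogs (Rab1a and Rab1b, Rab5b and Rab5c, Rab8a and Rab8b, Rab11a and Rab11b), and the labels do not say how reads common to such pairs were assigned, so their values are uncertain to that extent.

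**Figure D2:**
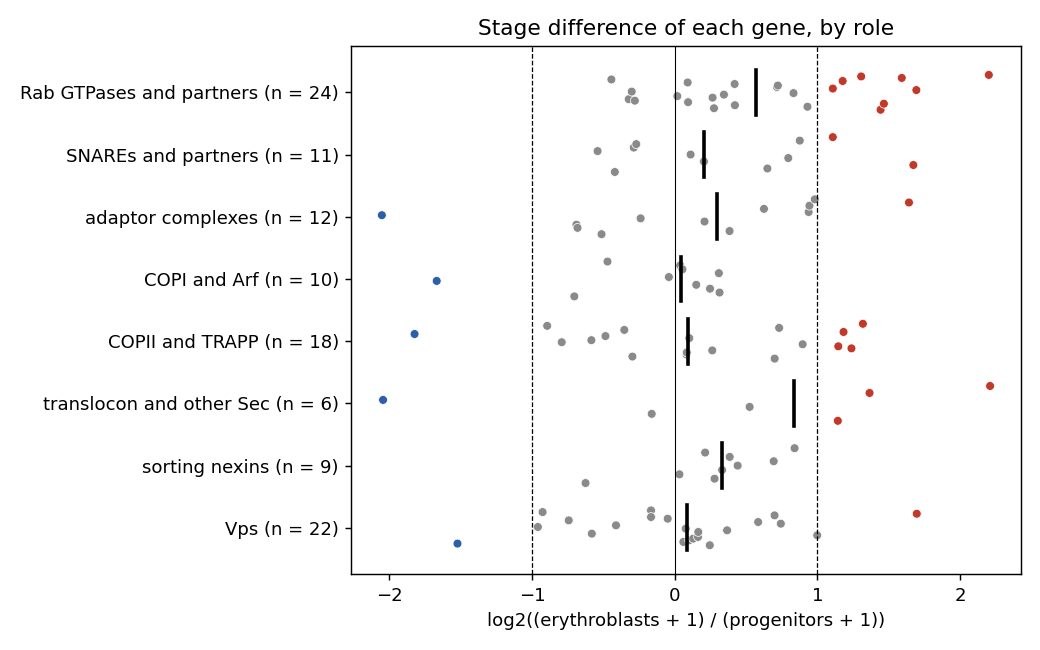
Log2 difference of each gene, erythroblasts over progenitors, by role, with 1 point per gene, the median of each role as a black bar and the 2-fold rule as dashed lines (red, rose; blue, fell; grey, neither). The Rab group has 8 rises (33.3%, against 15.3% of all genes) and no fall. COPI and Arf genes and sorting nexins lie mostly between the dashed lines, apart from Arf6.

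Rab GTPases, which switch between an active and an inactive form to give each membrane its identity, held the most rises. Of 24 Rab genes and Rab partners 8 rose and none fell, with a median log2 difference of 0.57, and of the 18 GTPases alone 7 rose with a median of 0.72. With a pseudocount of 5 the whole group had 6 rises and a median of 0.35, and the GTPases alone had 5 and 0.36. Rab5c, a GTPase of early endosomes, had 171 in erythroblasts and 78.7 in progenitors. Its log2 difference was 1.11, and all 5 exons were higher in erythroblasts (exon SD 0.66). Rab8b, which directs vesicles toward the cell surface, had 29.5 in erythroblasts and 8.43 in progenitors, a log2 difference of 1.69. Its 2 listed exons gave nearly the same ratio. Its paralog Rab8a had 30.2 in erythroblasts and 22.3 in progenitors, under the rule. Rab24, an atypical Rab linked to autophagy, had 32.7 in erythroblasts and 11.2 in progenitors, and its 6 exons all lay between 0.96 and 1.77 on the log2 scale.

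Recycling endosome genes were among these rises. Rab14, which acts between endosomes and the Golgi, had 17.4 in erythroblasts and 5.76 in progenitors, with both listed exons higher. Rab11b, a GTPase of recycling endosomes, had 10.2 in erythroblasts and 3.93 in progenitors on 1 exon, and did not pass the rule with a pseudocount of 5 (0.76). Rab11fip1, whose product binds Rab11 on those endosomes, had 58.0 in erythroblasts and 18.6 in progenitors, a log2 difference of 1.59. Its 2 exons were both higher but unequal, at 1.04 and 2.54. Rab11a (3.78 in erythroblasts, 1.89 in progenitors) and Rab4b (4.45 and 5.61), further recycling GTPases, stayed under the rule.

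Rab18, found on the ER and lipid droplets, had the largest difference of this group, 7.97 in erythroblasts and 0.95 in progenitors. Its log2 difference of 2.20 rested on 1 exon whose progenitor value lay just above the listing minimum. Rab1a, which acts between ER and Golgi, had 4.09 in erythroblasts and 1.06 in progenitors on 1 exon and did not pass with a pseudocount of 5, and its paralog Rab1b had 23.0 and 22.7 on 5 exons. The remaining Rab genes and partners stayed under the rule, from Rab35 (19.3 in erythroblasts, 26.7 in progenitors, log2 difference -0.44) to Rab11fip3 (3.08 and 1.14, 0.93). Rab7, the GTPase of late endosomes and lysosomes, was one of the 4 of this group that were lower in erythroblasts, with 77.5 and 97.0 in progenitors. Rab21 and Rab5b were higher on 1 exon each, at 2.70 and 3.18 in erythroblasts against 1.25 and 1.34 in progenitors. Rab10, Rab43, Rab40c, Rab3gap1, Rab3gap2 and Rab3ip had log2 differences between 0.09 and 0.42, and Rab5if had -0.30.

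Among 12 adaptor genes, which link cargo to clathrin, 1 rose (8.33%, against 15.3% of all genes) and 1 fell (8.33%, against 13.2%). The complexes differed. For AP2, which works at the cell surface and takes up the transferrin receptor, Ap2a1 had 263 in erythroblasts and 83.6 in progenitors. This alpha subunit gene had a log2 difference of 1.64, an exon SD of 0.97, and all 15 listed exons higher in erythroblasts, from 0.64 to 4.07. Ap2s1, the small subunit gene, had 40.8 in erythroblasts and 20.7 in progenitors, a log2 difference of 0.94 just under the rule, with all 4 exons higher. The beta subunit gene Ap2b1 had 18.9 in erythroblasts and 27.4 in progenitors. Subunits of 1 complex therefore did not share a direction in this column pair.

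For AP1, which works at the Golgi and endosomes, 4 of 5 subunit genes were lower in erythroblasts. Ap1g2, a gamma subunit gene, fell to 4.30 in erythroblasts, against 21.0 in progenitors, a log2 difference of -2.05. Its exons had an SD of 0.13, and the ratios of all 3 lay between -2.43 and -2.20. Ap1s1 (12.6 in erythroblasts, 20.8 in progenitors), Ap1m1 (14.3 and 23.7) and the second gamma gene Ap1g1 (7.42 and 8.93) stayed under the rule. Ap1b1, a beta subunit gene, went the other way, with 249 in erythroblasts, 130 in progenitors and all 17 exons higher, at a log2 difference of 0.94 that also stayed under the rule. The AP3 genes Ap3d1 (139 in erythroblasts, 70.1 in progenitors) and Ap3b1 (42.3 and 32.2), which serve lysosomes, were both under it, and Ap1ar, which encodes an AP1 partner, had 9.51 and 5.81.

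The ER and early secretory genes held 3 of the 5 largest absolute differences, in opposite directions. Sec61a1, the channel through which new proteins enter the ER, fell to 17.2 in erythroblasts, against 73.9 in progenitors, a log2 difference of -2.04. Its 6 exons were all lower, from -3.01 at the most 5' listed exon to -1.13 at the most 3' one. Sec62, an ER protein that aids import, rose to 42.8 in erythroblasts, against 8.45 in progenitors, the highest log2 difference of all members (2.21), on 1 exon. Sec61b, a small channel subunit gene, had 1.78 in erythroblasts and 0.93 in progenitors on 1 exon. Both listed signal peptidase genes, whose enzymes trim new proteins in the ER, rose. Sec11a had 9.08 in erythroblasts and 2.91 in progenitors, and Sec11c had 7.66 and 2.92, with both exons of each gene higher. With a pseudocount of 5 neither passed the rule, at 0.83 and 0.68. Sec14l1, a gene of the Sec14 lipid-binding family, had 43.0 in erythroblasts and 48.2 in progenitors.

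COPII, the coat of vesicles that leave the ER, was lower in erythroblasts in 6 of 7 genes, though only Sec31a passed the rule. Sec31a, the outer coat gene, fell to 25.95 in erythroblasts, against 94.3 in progenitors. Its log2 difference was -1.82, with an exon SD of 0.74 and all 5 exons lower. Sec13, whose product pairs with Sec31 in that coat, rose to 60.2 in erythroblasts, against 23.5 in progenitors. Its log2 difference was 1.32 and its 7 exons lay close together, between 0.97 and 1.89. Sec13 is also a nuclear pore and nutrient-sensing subunit. Sec23b, whose human counterpart is mutated in an inherited anemia of the red cell precursors, had 32.5 in erythroblasts and 49.2 in progenitors, a log2 difference of -0.58. The cargo-binding genes Sec24b (12.4 in erythroblasts, 23.8 in progenitors) and Sec24c (77.8 and 135) and the exit-site genes Sec16a (52.7 and 64.9) and Sec23ip (42.5 and 54.6) were lower by less than the rule asks. In Sec23ip 3 of 4 exons were higher in erythroblasts, and its exon median was 0.47, so that 5 of the 7 genes were lower by exon medians.

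TRAPP, a tether that also activates Rab1, gave the reverse. Of 11 TRAPP genes 10 were higher in erythroblasts (90.9%, against 51.2% of all genes), with a median log2 difference of 0.70. Of these 11 genes 3 rose (27.3%, against 15.3% of all genes) and none fell (against 13.2%). Trappc6a had 48.2 in erythroblasts and 21.2 in progenitors with all 3 exons higher. Trappc9 had 17.3 in erythroblasts and 7.05 in progenitors with all 4 exons higher. Trappc2l had 4.87 in erythroblasts and 1.49 in progenitors on 1 exon. With a pseudocount of 5 only Trappc6a among them passed the rule. Trappc10 (33.9 in erythroblasts, 19.99 in progenitors), Trappc3 (7.26 and 4.08) and Trappc8 (6.02 and 2.77) stayed under the rule, and Trappc4 (4.22 and 6.31) was the member that was lower. Trappc1, Trappc5, Trappc11 and Trappc12 had log2 differences between 0.08 and 0.26. The summed value of Trappc12, 39.7 in erythroblasts and 32.9 in progenitors, rested mostly on 1 exon with 32.6 and 30.3, and its other exons had log2 ratios of 1.37 and 1.51.

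None of the 6 member genes of COPI, the coat of vesicles that return from the Golgi to the ER, passed the rule in either direction. Of all genes 71.5% did not pass it. Copg1 had 105 in erythroblasts and 108 in progenitors over 22 exons, Cope had 92.4 and 77.7 over 10 exons, and Copa had 68.4 and 95.2 over 21 exons. Copb1, Copb2 and Copz1 had log2 differences of 0.15, 0.06 and 0.31. Arf1, the GTPase that recruits COPI, had 106 in erythroblasts and 103 in progenitors. Arf6, the Arf of the cell surface that controls endocytosis and recycling, fell to 35.1 in erythroblasts, against 114 in progenitors, a log2 difference of -1.67 on its 1 listed exon. Arf4 (2.53 in erythroblasts, 4.75 in progenitors) and Arf5 (37.3 and 29.8) stayed under the rule.

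Of 11 SNAREs and SNARE partners, which drive the fusion of membranes, 2 rose (18.2%, against 15.3% of all genes) and none fell (against 13.2%). Stx2, a syntaxin of the cell surface, had 10.9 in erythroblasts and 2.73 in progenitors, a log2 difference of 1.67 with both exons higher. Stx5a, the syntaxin of ER to Golgi traffic, had 18.4 in erythroblasts and 8.01 in progenitors, a log2 difference of 1.11 with all 5 exons higher. With a pseudocount of 5 the value of Stx5a was 0.85. Stx16, of the trans-Golgi, had 14.1 in erythroblasts and 7.68 in progenitors with all 4 exons higher, and Stx8, of late endosomes, had 3.42 and 1.40. Stx11 and Stxbp2, whose products act together in the granules of immune cells, had 1.65 and 108 in erythroblasts, against 2.85 and 133 in progenitors, under the rule. Vamp8 (58.5 in erythroblasts, 78.5 in progenitors), Vamp5 (32.7 and 28.2), Vamp2 (4.70 and 4.27), Stxbp5 (1.72 and 2.28) and Sec22b (1.96 and 0.89) were also under it.

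Retromer, which returns receptors from endosomes, and the sorting nexins, which bend and bind endosome membranes, were mostly higher in erythroblasts with few calls. Vps26a rose to 5.11 in erythroblasts, against 0.89 in progenitors, on 1 exon, and its log2 difference of 1.70 was 0.78 with a pseudocount of 5. Vps35, the core retromer gene, had 6.95 in erythroblasts and 2.98 in progenitors with all 3 exons higher, and its log2 difference of 0.999 fell just short of the rule. Vps29 had 13.3 in erythroblasts and 20.4 in progenitors with both exons lower, and Vps26b had 10.4 and 9.60. No sorting nexin of 9 passed the rule, where 71.5% of all genes did not, and 8 were higher in erythroblasts (88.9%, against 51.2%). Snx3, which sorts the transferrin receptor into the recycling path together with retromer in red cell precursors, had 27.1 in erythroblasts and 14.7 in progenitors. All 4 of its exons were higher, with log2 ratios of 0.40, 1.22, 2.34 and 1.75 from 5' to 3', so the exon median of 1.48, taken without a pseudocount, would pass the rule while the summed value, 0.84, did not. Snx1 had 31.2 in erythroblasts and 48.7 in progenitors, with its 3 most 5' listed exons between -3.02 and -1.12 and most of the others above 0. Snx2, Snx5, Snx12, Snx15, Snx17, Snx19 and Snx25 had log2 differences between 0.03 and 0.69.

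Of 7 ESCRT genes, which sort receptors into the lumen of endosomes for breakdown, 1 fell (14.3%, against 13.2% of all genes) and none rose (against 15.3%). Vps37b fell to 5.34 in erythroblasts, against 17.2 in progenitors, a log2 difference of -1.52 with both exons lower, at -0.54 and -1.87. Its paralog Vps37c had 4.65 in erythroblasts and 9.98 in progenitors on 1 exon, a log2 difference of -0.96 near the rule. The ESCRT genes Vps25, Vps28, Vps36, Vps4a and Vps4b had log2 differences between 0.06 and 0.59. None of 6 tether genes passed the rule, where 71.5% of all genes did not. Of these Vps11 (14.9 in erythroblasts, 8.48 in progenitors) and Vps18 (30.2 and 18.2), core genes of the tethers of endosomes and lysosomes, had all exons higher, while Vps16, Vps33a, Vps51 and Vps52 lay between -0.17 and 0.37. The lipid transfer genes Vps13b (6.76 in erythroblasts, 9.32 in progenitors) and Vps13c (29.5 and 50.02) were lower, as were Vps9d1 (1.15 and 3.08), Vps35l (12.5 and 14.1) and Vps72 (50.9 and 52.6), all under the rule.

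**Figure D3:**
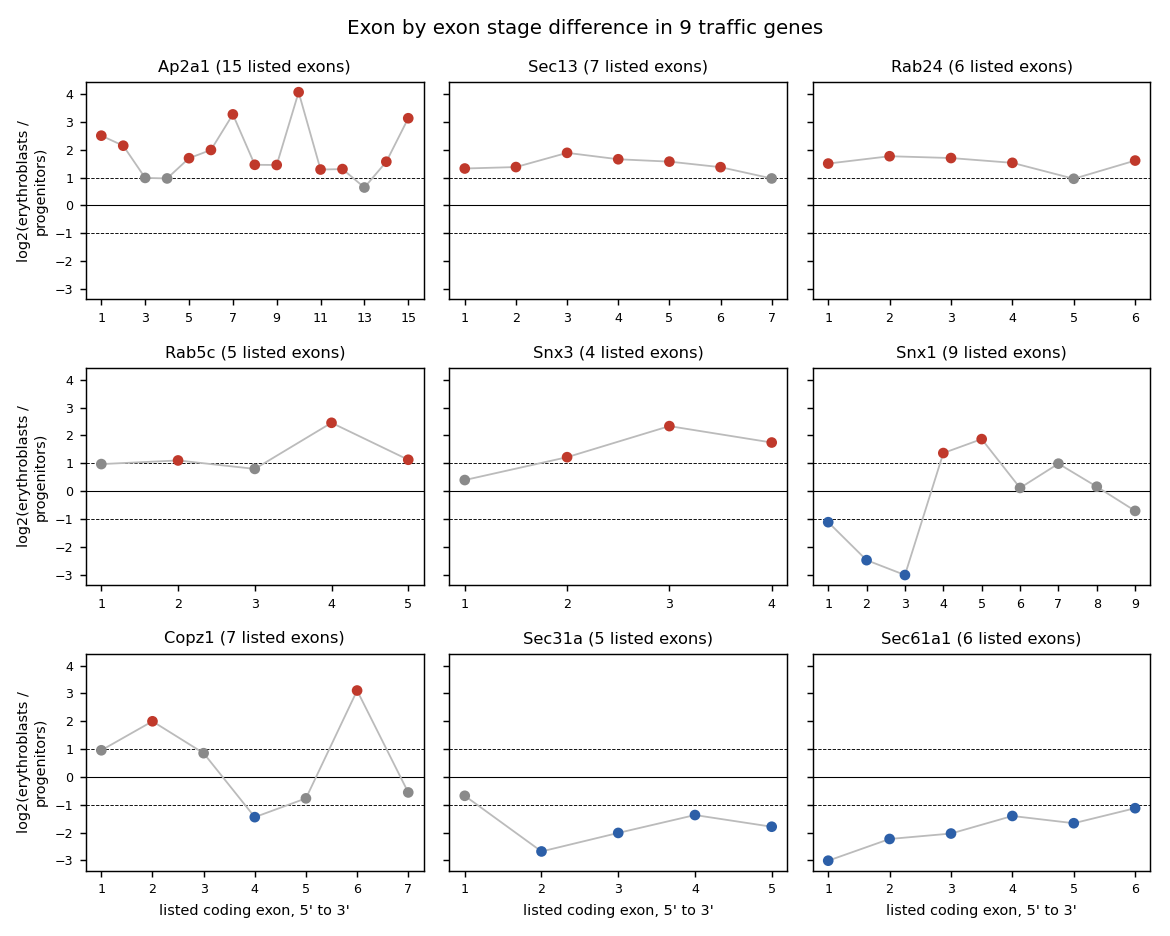
Log2 ratio of erythroblasts over progenitors for each listed coding exon, 5' to 3', in 9 genes chosen after their values were seen, with dashed lines at 2-fold in both directions. All listed exons of Ap2a1, Sec13, Rab24, Rab5c and Snx3 lie above 0 and all of Sec31a and Sec61a1 below 0, whereas those of Snx1 and Copz1 lie on both sides.

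A further list of 155 traffic genes outside the naming rule, among them clathrin, ESCRT, exocyst, golgin and cargo receptor genes, was set beside the members. Of these, 108 had listed exons, with a median log2 difference of 0.25. Of the 108, 22 rose (20.4%, against 15.3% of all genes) and 6 fell (5.56%, against 13.2%). The list was drawn up with earlier results of these data known. Picalm, a clathrin assembly gene needed for transferrin uptake, had 78.3 in erythroblasts and 9.42 in progenitors, a log2 difference of 2.93, above that of Tfrc itself (2.74). Epn1, an epsin that bends the coated pit, had 674 in erythroblasts and 206 in progenitors. Necap2, an AP2-binding endocytosis gene, had 92.7 in erythroblasts and 19.6 in progenitors. The clathrin chain genes themselves stayed under the rule, with Clta at 145 in erythroblasts and 127 in progenitors, Cltc at 91.8 and 78.4, and Cltb at 2.96 and 5.45. The best covered genes of the list besides Epn1 were also under it: Gga2, a Golgi adaptor, had 194 in erythroblasts and 132 in progenitors, the lysosome membrane gene Lamp1 had 192 and 215, and the vesicle-pinching Dnm2 had 186 and 144.

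Of the 11 listed ESCRT genes outside the naming rule all were higher in erythroblasts, against 51.2% of all genes. Of these 7 rose (63.6%, against 15.3%) and none fell (against 13.2%). This was the largest share of rises among the groups of this list, and none of the 5 exocyst genes rose. The rises included Tsg101 (27.0 in erythroblasts, 5.64 in progenitors), which binds the cargo's ubiquitin, and Chmp5 (9.08 and 1.25, on 1 exon), Chmp4b (77.8 and 31.8) and Chmp2a (91.6 and 38.8) of the membrane-cutting filament. The golgins Golga4 (78.6 in erythroblasts, 14.2 in progenitors) and Golgb1 (56.8 and 11.03), long tethers of the Golgi, rose. Rabgef1 (41.7 in erythroblasts, 11.2 in progenitors), an activator of Rab5, Napa (131 and 37.2), which recycles SNAREs, Becn1 (45.5 and 14.9), of autophagy, and Tbc1d15 (12.9 and 1.28, on 1 exon) rose as well. The falls were Tbc1d5, which acts on Rab7 (1.46 in erythroblasts, 6.13 in progenitors), Ap5b1 (1.24 and 5.39), Ap4m1 (0.93 and 3.59), Gorasp2 (14.2 and 35.7), Vac14 (21.0 and 51.8) and the cargo receptor Tmed10 (18.6 and 42.5). Tbc1d5, Ap5b1 and Ap4m1 rested on 1 listed exon each, with low values in erythroblasts. Results with other pseudocounts are not given for the genes of this list. Of 20 genes for cargo receptors, coat GTPases and Arf regulators 14 were lower in erythroblasts, with 1 fall and 1 rise. The exocyst gene Exoc6, whose mutation in the mouse impairs transferrin recycling, had 22.6 in erythroblasts and 22.9 in progenitors, and Steap3, the iron reductase of that path, had 114 and 132.

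EKLF peaks lay near members about as often as near other genes. A gene counted as having a peak if one fell inside the stretch of its listed exons or no more than 5 kb outside it. By this count 47 of 112 members had an erythroblast peak (42.0%, against 46.5% of all genes) and 34 a progenitor peak (30.4%, against 30.9%). Peaks of both lists were at 27 members (24.1%, against 27.1%), of erythroblasts alone at 20 (17.9%, against 19.4%), of progenitors alone at 7 (6.25%, against 3.79%) and of neither at 58 (51.8%, against 49.7%). In 26 of the 27 members with both, an erythroblast and a progenitor peak overlapped each other, the exception being Vamp8, whose peaks lay on opposite sides of the gene. Where 5' exons were unlisted, a peak at the true start of a gene may not have been counted. These counts also grow with the window, to 83 and 66 members with an erythroblast and a progenitor peak at 20 kb, where all genes reach 72.4% and 51.8%.

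**Figure D4:**
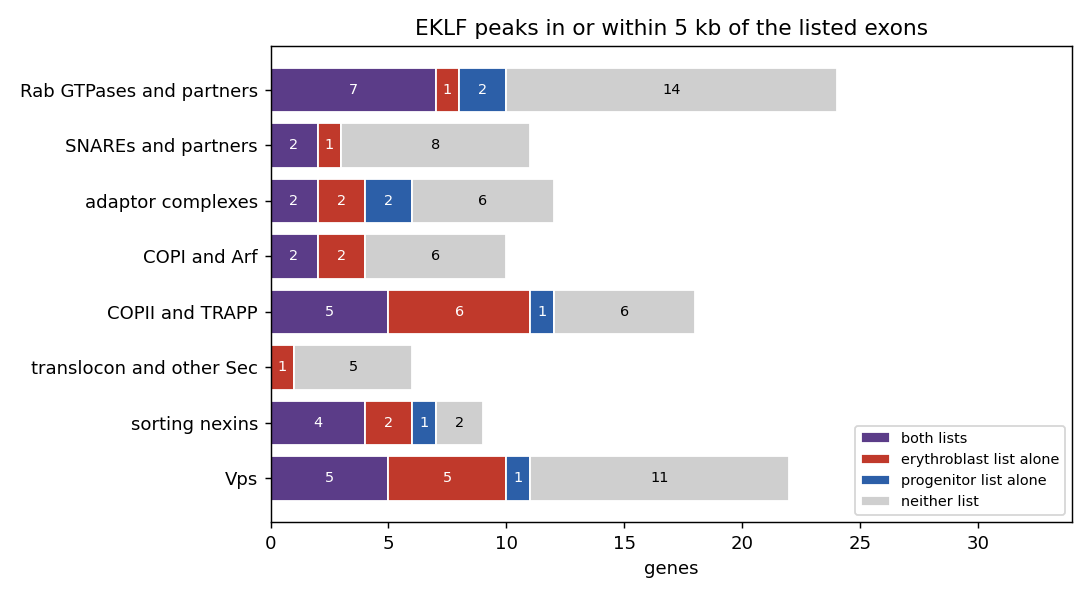
Number of genes of each role with an EKLF peak in or within 5 kb of the listed exons, by list, with the count written in each bar part. Among sorting nexins 7 of 9 genes have a peak of some list, and among translocon and other Sec genes 1 of 6. The share is 48.2% of all members and 50.3% of all genes, and groups this small were not compared by a test.

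The genes that rose or fell were spread over these classes. Of the 19 rises 4 had peaks in both lists (Rab8b, Stx5a, Trappc2l and Trappc9), 2 in erythroblasts alone (Ap2a1 and Sec13), 2 in progenitors alone (Rab5c and Trappc6a) and 11 in neither. Of the 5 falls Arf6 had peaks in both lists, Sec61a1 in erythroblasts alone, and Ap1g2, Sec31a and Vps37b in neither. In the order both, erythroblasts alone, progenitors alone and neither, 4 of 27, 2 of 20, 2 of 7 and 11 of 58 members rose. Over all genes 15.1, 15.99, 12.2 and 15.3% of these classes rose, and 12.8, 11.4, 13.7 and 14.1% fell. These shares were not compared by a test. The median log2 difference was 0.37 over the 27 members with both, 0.10 over the 20 with erythroblast peaks alone, 0.72 over the 7 with progenitor peaks alone and 0.25 over the 58 with neither. Over all genes these medians were 0.03, 0.08, -0.01 and 0.01.

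The highest-ranked erythroblast peak at a member lay at Arf6, a gene that fell. It spanned chr12:70472326-70474390 (build mm9, as for all peaks here), covered the start of the listed exon, had the authors' fold enrichment of 24.8 and ranked 353 of 19353 peaks. The progenitor list had a peak over the same exon, at chr12:70472031-70474365, with an enrichment of 7.93 and rank 1074 of 7358. The enrichments are the authors' own and, like the ranks, serve to order peaks inside a single list. The next erythroblast peaks were at Vps11 (chr9:44149502-44152913, enrichment 21.5), Arf5 (chr6:28372794-28374824, 21.5), Rab8a (chr8:74683878-74685810, 22.3) and Ap3d1 (chr10:80163821-80166098, 19.0). Those at Arf5 and Rab8a covered the most 5' listed exon start, and those at Vps11 and Ap3d1 lay downstream of the listed exons. The peaks at Vps11 and Arf5 were also within reach of another listed gene each.

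In the progenitor list the highest-ranked peak at a member lay downstream of Sec24c, at chr14:21513237-21515505, with an enrichment of 16.1 and rank 353. It was followed by peaks at Rab5if (chr2:156687621-156689923, enrichment 10.7), Rab8a (chr8:74684108-74686102, 9.13), Snx17 (chr5:31501772-31505569, downstream) and Sec23ip (chr7:135882982-135884696, 14.3). All of these overlapped an erythroblast peak at the same gene. The peak at Snx17 was also within reach of 2 other listed genes. Rab8b had a peak over its most 5' listed exon start in both lists, at chr9:66766376-66767972 with an enrichment of 20.7 in erythroblasts and at chr9:66766235-66768190 with 10.1 in progenitors. Snx3 had one there too, at chr10:42220998-42222955 with 17.0 in erythroblasts and at chr10:42221160-42223197 with 8.70 in progenitors. At Trappc2l the peaks ended 749 and 379 bases before the listed exon in erythroblasts and progenitors.

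Peaks at members lay over or upstream of the 5' exon in smaller shares than those at all genes. Of 63 erythroblast peaks at members 19 covered the most 5' listed exon start, 22 lay upstream of it, 7 between listed exons and 15 downstream. Of 38 progenitor peaks these counts were 12, 13, 3 and 10. The share over or upstream of the 5' start was 65.1% of erythroblast and 65.8% of progenitor peaks at members, against 77.3 and 82.8% of the gene and peak pairs of all genes. For 12 forward-strand members whose first coding exon is listed, an erythroblast peak lay within 1 kb of its start in 8 and a progenitor peak in 4, and over all 643 such genes these shares were 73.3 and 49.6%. The median enrichment of the members' peaks was 10.8 in the erythroblast list and 7.55 in the progenitor list, near the medians of all peaks in each list, 9.31 and 7.03.

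**Figure D5:**
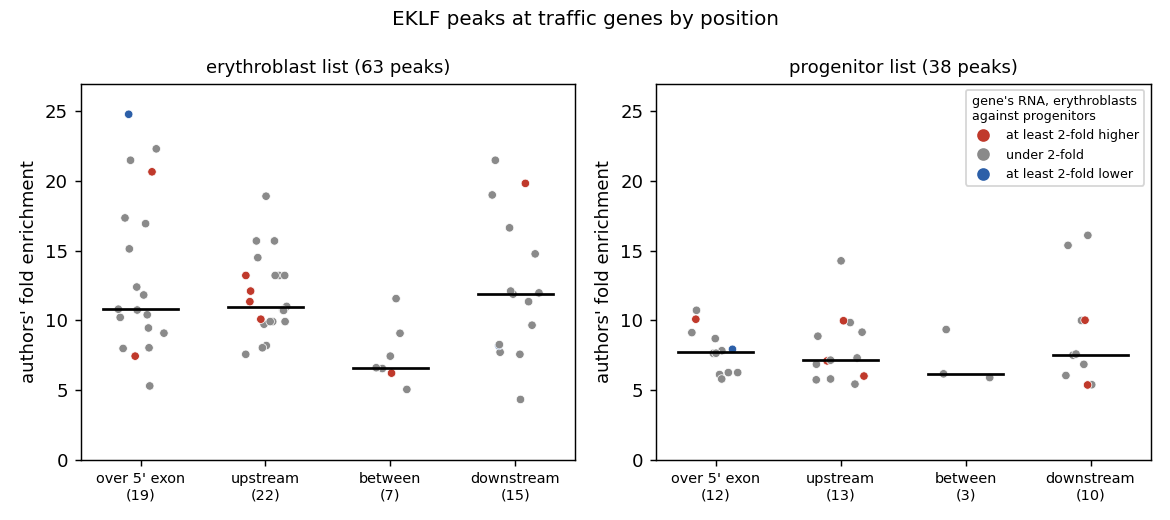
The authors' fold enrichment of each EKLF peak at a member, by position relative to the listed exons, for the erythroblast list (left, 63 peaks) and the progenitor list (right, 38 peaks), with the median as a black bar and the gene's RNA call as colour. Enrichments are comparable within 1 panel only, and the highest erythroblast one, 24.8, belongs to Arf6.

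EKLF binds a short CACCC-type motif, CCNCNCCC, and the promoters of members were searched for these letters on both strands, counting overlapping matches. The 250 bases before the annotated start were taken from RefSeq, in build GRCm38.p6, for the 89 members with an entry. At least 1 match was found in 66 of them (74.2%), against 67.9% of 4280 genes of the exon table with an entry, 48.5% of all 27025 genes of the promoter table and 45.9% of its 32851 promoters. The share was 88.9% over 36 members with an erythroblast peak, 70.8% over 48 with no peak and 66.7% over 15 that rose. All genes were not split by peak in this way, so it cannot be said whether this difference is particular to members. The median GC content was 61.0% for members with an erythroblast peak and 61.4% for those with no peak. What sets the shares apart was not tested. The 2 builds differ, so where a match lies relative to a peak was not determined. Shown 5' to 3' are the promoters of Rab8b and Trappc2l, which rose and had peaks in both lists, of Rab8a and Arf5, which had peaks over the 5' exon in both lists, and of Sec62, the largest rise. For Sec62 peaks were looked for only around its 1 listed exon, not at the promoter shown. Capitals mark the motif or its reverse complement GGGNGNGG, and neighbouring matches can run together.
Rab8b: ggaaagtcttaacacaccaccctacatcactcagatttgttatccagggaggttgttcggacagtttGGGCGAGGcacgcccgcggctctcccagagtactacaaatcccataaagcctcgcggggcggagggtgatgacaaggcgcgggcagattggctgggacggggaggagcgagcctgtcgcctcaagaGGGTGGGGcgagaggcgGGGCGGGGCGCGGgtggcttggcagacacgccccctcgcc
Trappc2l: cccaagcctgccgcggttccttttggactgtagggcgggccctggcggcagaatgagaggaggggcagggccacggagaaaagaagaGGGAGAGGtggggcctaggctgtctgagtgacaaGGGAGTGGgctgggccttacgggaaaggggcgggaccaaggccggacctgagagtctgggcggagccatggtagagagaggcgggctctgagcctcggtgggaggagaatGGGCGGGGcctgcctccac
Rab8a: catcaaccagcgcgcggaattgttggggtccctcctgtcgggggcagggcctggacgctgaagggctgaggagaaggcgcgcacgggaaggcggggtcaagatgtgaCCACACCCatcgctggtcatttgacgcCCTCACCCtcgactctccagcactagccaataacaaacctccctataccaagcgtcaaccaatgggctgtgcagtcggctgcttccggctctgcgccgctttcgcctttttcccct
Arf5: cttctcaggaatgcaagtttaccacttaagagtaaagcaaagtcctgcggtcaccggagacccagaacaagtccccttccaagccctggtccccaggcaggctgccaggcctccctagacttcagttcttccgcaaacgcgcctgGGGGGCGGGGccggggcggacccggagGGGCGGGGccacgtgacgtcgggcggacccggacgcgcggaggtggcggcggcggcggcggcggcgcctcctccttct
Sec62: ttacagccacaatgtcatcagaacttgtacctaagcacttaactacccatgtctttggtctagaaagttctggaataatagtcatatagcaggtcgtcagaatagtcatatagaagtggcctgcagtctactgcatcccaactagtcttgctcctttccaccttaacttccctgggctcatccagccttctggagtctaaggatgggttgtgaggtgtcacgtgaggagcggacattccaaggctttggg

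These windows lie at chr9:66919706-66919955 on the minus strand for Rab8b, and on the plus strand at chr8:122611376-122611625 for Trappc2l, chr8:72160950-72161199 for Rab8a, chr6:28423354-28423603 for Arf5 and chr3:30792626-30792875 for Sec62. Rab8b had 4 matches, Trappc2l and Arf5 3 each and Rab8a 2. All matches in Rab8b, Trappc2l and Arf5 were on the strand opposite to the gene, and both in Rab8a on the strand of the gene. Sec62 had no match, and its GC content of 46.8% was below the 64.4% of Rab8b, 66.8% of Trappc2l, 61.6% of Rab8a and 68.8% of Arf5. The promoters shown are examples, and matches and peaks did not always go together. Snx3, Snx17 and Sec23ip had peaks in both lists and no match. Rab3ip and Sec16a had no peak in either list and 8 matches each. A match is a run of letters, and binding at it was not measured.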

How the data were processed

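Per the labels' protocols, RNA was sequenced as paired reads of 51 bp and ChIP fragments of about 200 bp were selected, from at least 3 sorts per population. Aligner, counter and peak caller were not given in the sources used here, while build mm9 is listed per the submitters' processing notes.

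The exon values the authors deposited are named as RPKM but are used as a coverage signal, since exon length is not divided out: 100% of values are multiples of a fixed step (tolerance 0.01), of which 2151 make 1 unit in erythroblasts and 1835 in progenitors. In the deposited peak lists, the authors' fold enrichment and -log10 p were identified from the values, and peaks were ranked by the -log10 p.

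RefSeq accessions were matched to symbols through the GRCm38.p6 table (6772 of 6853 transcripts). The transcript with most listed exons was kept per gene. Genes had to reach 1 in either stage. Promoters are RefSeq GRCm38.p6.

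All 112 members are accounted for. Named in full were members past the rule with at least 5 in the higher stage, the 2 best covered per role, the 5 with the highest-ranked peak per list, and, among other traffic genes, up to 12 past the rule and 4 best covered; further genes were named after their values were seen. Members and lists were chosen with earlier results of these data known. Steps were tested on simulated data. Alternatives were other pseudocounts, scalings, exon summaries, filters, windows and peak ranks. Python 3.11.15, pandas 2.3.3, numpy 2.4.6 and matplotlib 3.10.9 were used.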

Additional observations from a re-analysis of the deposited data

How the results depend on the processing

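Of the 19 rises and 5 falls among members, all kept their call under both rescalings of the columns, with a pseudocount of 0.1, with the union of listed exons and with the median of exon ratios. A smaller pseudocount can only enlarge a difference, so it could remove no call. For calls on 1 exon the exon median is the same ratio without a pseudocount, so it could not remove them either. With a pseudocount of 5, rises numbered 11 and the 5 falls remained, against 9.86 and 7.91% of all genes. With the median of exon log2 ratios there were 30 rises and 8 falls, against 19.2 and 14.6% of all genes, and the members' median log2 difference was 0.39, against 0.09 over all genes. The causes of these shifts were not tested. Members with an erythroblast peak, a progenitor peak and both numbered 28, 18 and 14 within 1 kb, 83, 66 and 60 within 20 kb, and 29, 18 and 13 with peaks ranked above the median of each list, since these settings admit more or fewer peaks. For all genes the matching shares were 30.8, 19.6 and 17.0% within 1 kb, 72.4, 51.8 and 48.2% within 20 kb, and 29.4, 18.5 and 14.2% with the higher-ranked peaks. Of 240 recomputed differences of 40 named members 6 lost and 2 gained the call, and no called difference reversed. Among those under the rule 6 changed sign, all with the median of exon ratios: Rab5if (0.40), Sec23ip (0.47), Snx1 (0.11), Sec14l1 (0.13), Copg1 (0.12) and Vps72 (0.25), all lower in erythroblasts by summed exons. Scalings moved the median of all genes by less than 0.1 on the log2 scale, but the small positive median of the 10 COPI and Arf genes (0.05) became -0.02 with equal totals without globins.

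No paired analysis was possible because the deposited table has 1 column per stage, and for the same reason no replicate was left out. Depth limits the genes near the listing minimum of 0.8, such as Rab18 and Vps26a in progenitors.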

Other observations

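Some members had listed exons that went in opposite directions, which their summed values do not show. Ap2m1, the AP2 subunit gene that binds receptor tails, had 14.4 in erythroblasts and 12.3 in progenitors. Of its 2 listed exons 1 had 8.03 in erythroblasts and 1.38 in progenitors, a log2 ratio of 2.54, and the other had 6.40 and 10.96, a log2 ratio of -0.78. Copz1, a COPI subunit gene, had 7 listed exons with log2 ratios from -1.45 to 3.10 and an SD of 1.62. In Snx1 the 3 most 5' listed exons had 3.72, 1.30 and 1.34 in erythroblasts, against 8.07, 7.28 and 10.9 in progenitors, while the next 2 had 2.80 and 3.45, against 1.09 and 0.95. Ap3b1 had its 4 most 5' listed exons higher in erythroblasts, up to a log2 ratio of 2.51, and 4 of the other 5 lower. The median SD over exons was 0.61 both over members with 2 or more exons and over all such genes. What sets these exons apart was not tested.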
